A study of Mus musculus with 4 samples.

Results

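The genes described here encode the common proteins of the spliceosome: the Sm proteins, the proteins particular to the U1, U2 and U5 small nuclear ribonucleoproteins (snRNPs), the proteins of the U4/U6.U5 tri-snRNP and the B complex, and the Prp19 complex with the step protein Slu7. They were given as 41 gene symbols, and a gene was measured where the platform annotation gave a row of the deposited table exactly 1 distinct symbol. By that rule 36 of the 41 had a row, out of 30142 genes measured in all. Snrpd1, Snrpd2, Snrpa, Txnl4a and Mfap1a lay only on rows that carry several symbols and were not analysed here.

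RNA came from mouse blastocyst-derived outgrowths, cultures in which the trophoblast attaches and spreads and the inner cell mass grows on top of it. The samples were 2 arrays of Tip110-/- outgrowths and 2 of wild-type outgrowths, from Tip110+/- intercrosses with natural matings and superovulations. Blastocysts of both genotypes were flushed at 3.5 days post coitum and cultured singly for 4 to 6 days in a stem cell medium with knockout serum replacement, with no treatment. Embryos were genotyped from their cDNA, and neither the strain nor the kind of Tip110 allele is stated in the labels. In each genotype replicate 1 pooled 3 outgrowths and replicate 2 was 1 outgrowth, so a group holds 4 embryos on 2 arrays. The RNA collected was 165 and 144 pg for Tip110-/- and 746 and 178 pg for wild-type. Values are log2 signals on Affymetrix whole-transcript arrays, and a difference is Tip110-/- minus wild-type on that scale. Signals of different rows depend on their probes and are not compared between genes.

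Introns are removed by the spliceosome, which is built on each intron from RNA-protein particles. U1 recognises the start of the intron and U2 its branch point. The preassembled U4/U6.U5 tri-snRNP then joins, U1 and U4 are released, and the Prp19 complex accompanies the activated machine through both catalytic steps. Tip110, encoded by Sart3, acts beside these proteins and not within the Sm, U1, U2 or U5 particles: it binds U6 and helps U4 and U6 to pair again after a round of splicing. In human cells SART3 also brings ubiquitin proteases to tri-snRNP proteins that the Prp19 complex has modified. The comparison of genotypes asks whether transcripts of the shared machinery differ when Tip110 is missing.

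Sart3, the gene disrupted in Tip110-/- outgrowths, was at 4.28 and 4.54 in Tip110-/- and at 4.94 and 5.98 in wild-type, and both Tip110-/- arrays lay below both wild-type arrays. The Tip110-/- values were under the 95th percentile of the background rows on their arrays, 4.69 and 4.71, so the size of the Sart3 difference was not measured. The fitted difference of -1.05 ± 0.39 (SE) did not pass (limma adjusted p = 0.386), and it was -0.53 without wild-type replicate 2. Where the probes of this row fall relative to the disrupted stretch of Sart3 is not given in the sources used here. The row is a limited check of the labels for that reason.

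Transcripts of the shared machinery showed no difference between genotypes that passed a test. None of the 36 genes passed at an adjusted p under 0.05 in limma (0 of 36, where 0% of all 30142 genes passed), and their adjusted p ran from 0.413 to 0.988. At an unadjusted p under 0.05, 0 of 36 were lower and 0 were higher, where 3.67% and 8.99% of all genes were. Their differences ran from -1.11 for Zmat2 to 1.00 for Snrpc, and 25 of 36 were under 0.5 in size. The median difference was 0.02, against 0.15 over all genes tested. Below 0 lay 18 of the 36, and above 0 the other 18.

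Most genes of the table are dim, so the spliceosome genes were also read beside genes of a mean signal of at least 8, which held 27 of the 36 and 4683 genes in all. At an unadjusted p under 0.05, 0 of the 27 were lower and 0 higher, where 6.96% and 3.14% of the 4683 genes were, and 0% of them passed the adjusted threshold. A difference of at least 1, or 2-fold, toward lower signal was seen in 1 of the 27 and toward higher signal in 1, against 12.8% and 13.4% of the 4683. Over all levels these were 1 and 1 of 36, against 5.56% and 4.53% of all genes. The median size of the difference was 0.38 in the 27 and 0.50 in the 4683 genes. With its sign, the median difference was -0.0176 in the 27 and -0.0235 in the 4683. All 36 spliceosome genes lay above the 95th percentile of the 23 antigenomic background rows on all 4 arrays. The 5222 negative control rows reach higher. Their 95th percentile was 10.68 and 10.84 in Tip110-/- and 9.83 and 10.32 in wild-type. The median signal of the 36 genes, from 9.58 to 10.04, lay under that percentile on every array. The median of the negative control rows was lower, at 4.28 and 4.18 in Tip110-/- and 3.98 and 4.03 in wild-type.

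**Figure D1:**
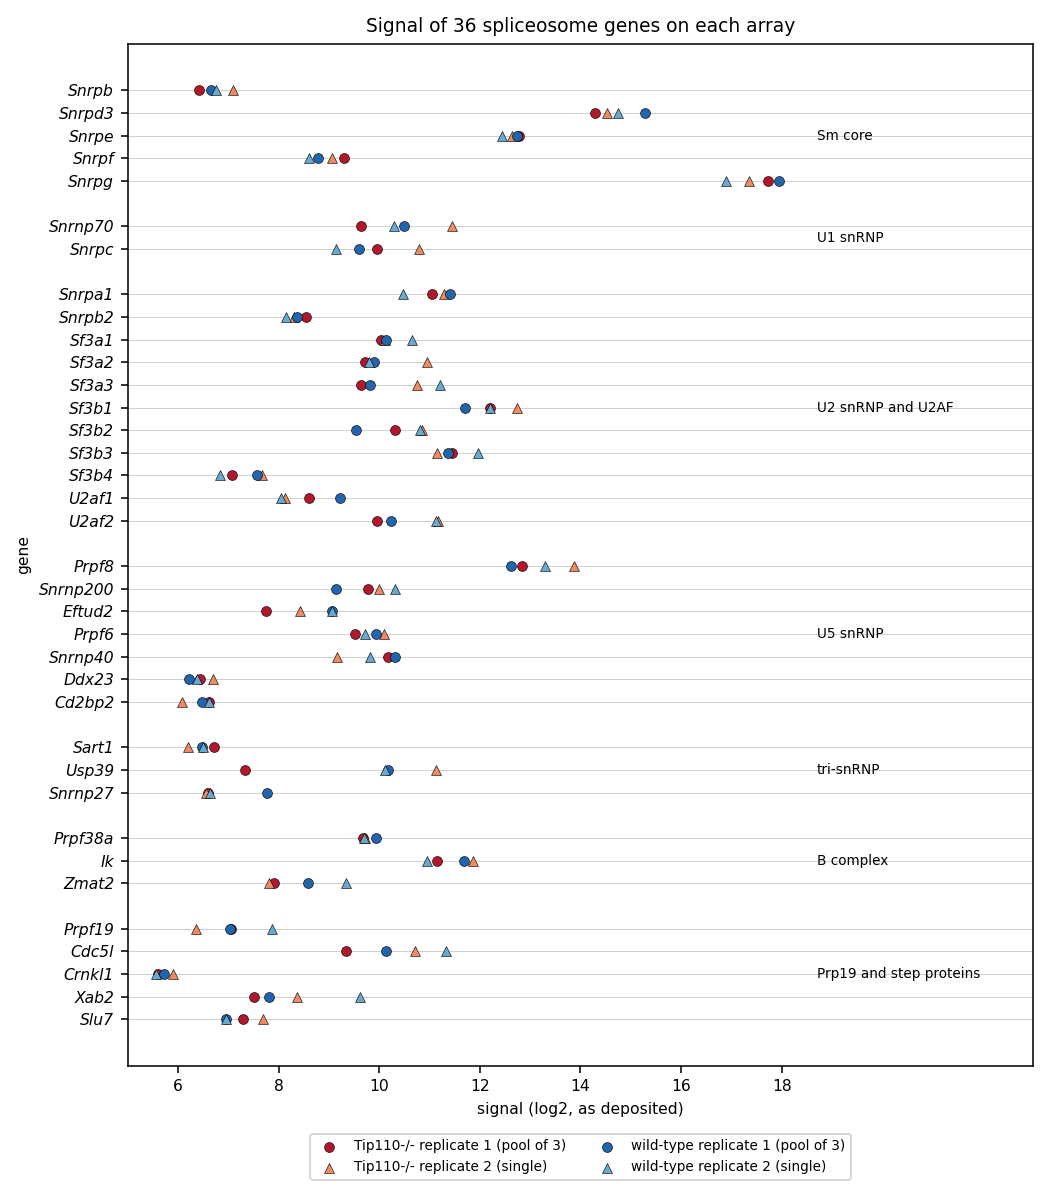
Signal (log2, as deposited) of the 36 measured spliceosome genes on each of the 4 arrays, grouped by particle; red and orange symbols are Tip110-/-, dark and light blue symbols wild-type, circles pools of 3 outgrowths and triangles single outgrowths. The genotypes intermingle in most rows, and Usp39 has 1 array, the Tip110-/- pool, at 7.34 with the other arrays between 10.11 and 11.13.

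A lack of a call is not a lack of change, because 2 arrays per genotype give wide intervals. The standard error of a difference had a median of 0.52 over the 36 genes. The 95% intervals of 2 of 36 genes, those of Sart1 (-0.98 to 0.91) and Crnkl1 (-0.62 to 0.84), lay wholly within a 2-fold change in either direction. For the other 34 the interval reached a 2-fold change in at least 1 direction. In 25 of 36 the interval lay within a 4-fold change, from -2 to 2. In 29 of 36 genes the difference between genotypes was smaller than the larger of the gaps between arrays of 1 genotype.

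The Sm proteins form the ring that sits on the U1, U2, U4 and U5 RNAs, and 5 of the 7 were measured. Snrpd3 was at 14.29 and 14.53 in Tip110-/- and at 15.29 and 14.75 in wild-type. Both Tip110-/- arrays lay below both wild-type arrays, by a mean difference of -0.61 ± 0.33 (SE, limma adjusted p = 0.438). Snrpf was at 9.30 and 9.07 in Tip110-/- and at 8.78 and 8.60 in wild-type. Here the Tip110-/- arrays lay above, by 0.50 ± 0.50 (limma adjusted p = 0.612). Snrpb, which encodes SmB, was at 6.42 and 7.09 in Tip110-/- and 6.65 and 6.75 in wild-type, and the groups overlapped. Snrpe was at 12.77 and 12.63 in Tip110-/- and 12.73 and 12.44 in wild-type, which also overlap. These ring partners had measured differences on both sides of 0, and the median over the 5 was 0.11.

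Snrpg, the remaining ring member measured, had 2 rows, and the brighter one stands for it here. It was at 17.72 and 17.35 in Tip110-/- and 17.94 and 16.89 in wild-type, a difference of 0.12. The number in that row's identifier is 17, whereas the RefSeq gene table places Snrpg on chromosome 6; over rows with a chromosome in that table, the identifier's number equals the chromosome in 99.6%. The other row, whose number is 6, was at 6.80 and 6.56 in Tip110-/- and 7.19 and 6.38 in wild-type, a difference of -0.10. Both rows overlapped between genotypes and differ in sign, so neither row gives a direction for Snrpg, and the brighter signal is uncertain as a measure of it.

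For U1, Snrnp70 and Snrpc were measured. Snrpc encodes the U1 protein that steadies pairing of the particle with the start of the intron, and it had the largest positive difference among the 36. It was at 9.95 and 10.79 in Tip110-/- and at 9.59 and 9.14 in wild-type. All Tip110-/- values exceeded the wild-type values, and the difference of 1.00 ± 0.58 (SE) did not pass (limma adjusted p = 0.450). It was 0.59 without Tip110-/- replicate 2. Snrnp70, which holds the first stem-loop of U1 RNA, was at 9.63 and 11.44 in Tip110-/- and at 10.49 and 10.29 in wild-type. The Tip110-/- arrays lay on either side of the wild-type pair, and the difference of 0.15 ± 0.76 was smaller than their gap (limma adjusted p = 0.929). It was -0.75 without Tip110-/- replicate 2 and 1.05 without Tip110-/- replicate 1.

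All 11 genes of the U2 group were measured, with differences from -0.38 to 0.51 and a median of 0.17. Sf3b1, the large SF3b protein that grips the branch point helix, had the most positive difference: it was at 12.19 and 12.74 in Tip110-/- and at 11.71 and 12.20 in wild-type. The groups only just overlapped, and the difference was 0.51 ± 0.49 (SE, limma adjusted p = 0.595). Sf3b3, its beta-propeller partner, had the most negative one and was at 11.45 and 11.15 in Tip110-/- and 11.38 and 11.97 in wild-type. Its difference was -0.38 ± 0.51, also with overlapping groups (limma adjusted p = 0.706). The SF3b differences thus had both signs, since Sf3b2 differed by 0.42 and Sf3b4 by 0.17.

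Of the SF3a trimer, which joins SF3b to the U2 particle, Sf3a1 was at 10.03 and 10.12 in Tip110-/- and at 10.13 and 10.66 in wild-type. It was the only gene of the 11 whose groups did not overlap, by a margin far smaller than the gap between the wild-type arrays. Sf3a2 differed by 0.48 and Sf3a3 by -0.32. The U2-specific Snrpa1 and Snrpb2, which bind a stem-loop of U2 RNA together, differed by 0.23 and 0.18. U2af2, which binds the pyrimidine tract before the end of the intron, was at 9.96 and 11.17 in Tip110-/- and at 10.24 and 11.13 in wild-type. Its partner U2af1, which reads the final AG, was at 8.60 and 8.12 in Tip110-/- and at 9.23 and 8.04 in wild-type. The groups overlapped in both U2AF genes, and in both genotypes the pool was the lower array for U2af2 and the higher one for U2af1.

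The U5 particle carries the catalytic scaffold and the motors that remodel the tri-snRNP, and 7 of its 8 genes were measured. Eftud2, the GTPase that sits on the scaffold, had the largest difference of the 7. It was at 7.75 and 8.43 in Tip110-/- and at 9.06 and 9.07 in wild-type. Both Tip110-/- arrays lay below a tight wild-type pair, by -0.97 ± 0.52 (SE), and the difference did not pass (limma adjusted p = 0.434). A second, dimmer row annotated to Eftud2 was at 5.06 and 4.80 in Tip110-/- and 4.57 and 4.69 in wild-type, a difference of 0.30. The rows of this gene therefore disagree in sign, and the dimmer one is close to the background rows.

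Prpf8, the scaffold that holds the catalytic RNA, was at 12.84 and 13.88 in Tip110-/- and at 12.61 and 13.29 in wild-type, a difference of 0.41 ± 0.54 (SE, limma adjusted p = 0.699) with overlapping groups. It was -0.11 without Tip110-/- replicate 2. Snrnp200, the helicase that unwinds U4 from U6 and so creates the substrate that Tip110 later restores, was at 9.78 and 9.99 in Tip110-/- and at 9.13 and 10.31 in wild-type. Both Tip110-/- arrays lay inside the wild-type range. Ddx23, the helicase that displaces U1 from the start of the intron, was at 6.43 and 6.70 in Tip110-/- and 6.21 and 6.38 in wild-type, just without overlap. Prpf6, the bridge between U5 and U4/U6, differed by -0.02, Snrnp40 by -0.40 and Cd2bp2, which leaves U5 before the tri-snRNP forms, by -0.20. Across the 7 genes the median difference was -0.02.

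**Figure D2:**
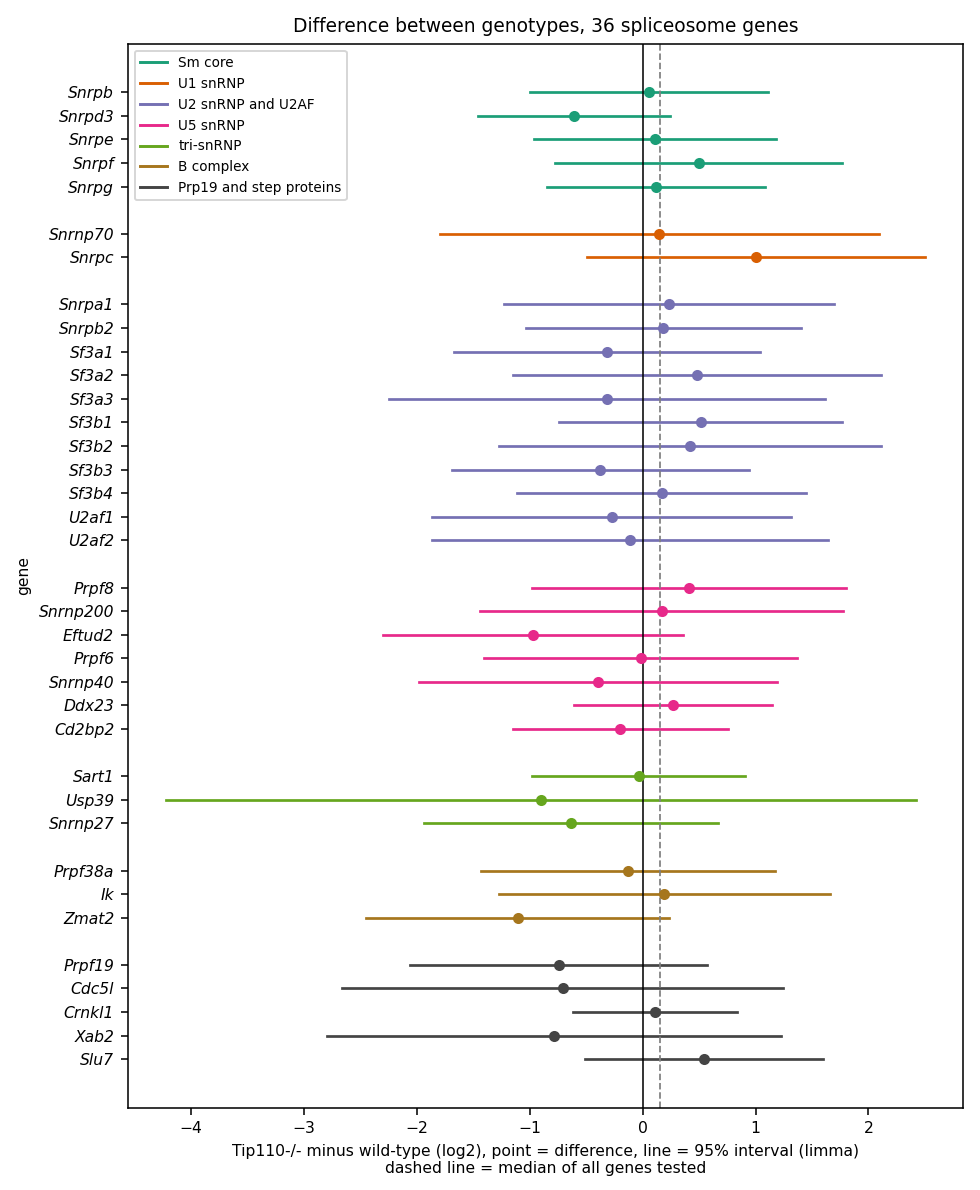
Difference between genotypes (Tip110-/- minus wild-type, log2) of the 36 measured spliceosome genes, with 95% intervals from limma, coloured by particle; the dashed line is the median of all genes tested, 0.15. Every interval includes 0, and the longest, from -4.23 to 2.42, belongs to Usp39.

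Among proteins that enter with the assembled tri-snRNP, Usp39 stood apart by its spread. Usp39 is a ubiquitin-protease relative without protease activity that keeps the tri-snRNP stable. It was at 7.34 and 11.13 in Tip110-/- and at 10.17 and 10.11 in wild-type. The pooled Tip110-/- array was far below the rest and the single Tip110-/- outgrowth above both wild-type arrays, so the difference of -0.90 ± 1.30 (SE) has no settled direction (limma adjusted p = 0.720). It was 0.99 without Tip110-/- replicate 1 and -2.80 without Tip110-/- replicate 2, and only without replicate 2 did Usp39 reach an unadjusted p under 0.05 among the alternatives run. It was also the sole gene of the 36 whose arrays of 1 genotype were over 3 apart.

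Snrnp27 was at 6.59 and 6.55 in Tip110-/- and at 7.76 and 6.64 in wild-type. Its Tip110-/- arrays lay below both wild-type arrays, the nearer of them by only a small step, and the difference was -0.64 ± 0.51 (SE, limma adjusted p = 0.536). Without wild-type replicate 1 it was -0.08. Sart1, which ties the U5 side of the tri-snRNP to U4/U6, was at 6.71 and 6.19 in Tip110-/- and at 6.47 and 6.50 in wild-type. The wild-type arrays lay between the Tip110-/- arrays, and the difference was -0.04 ± 0.37 (limma adjusted p = 0.968). Sart1 and Sart3 are different genes despite the shared name.

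The B complex proteins join as the tri-snRNP is locked in place, and Zmat2 among them had the most negative difference of all 36 genes. It was at 7.90 and 7.81 in Tip110-/- and at 8.59 and 9.34 in wild-type. The Tip110-/- arrays were tight and below both wild-type arrays, by -1.11 ± 0.52 (SE); this did not pass, at the smallest adjusted p of the 36 (limma adjusted p = 0.413). Its direction was the same in the pools, at -0.69, and in the single outgrowths, at -1.53. Ik, known as RED, was at 11.15 and 11.87 in Tip110-/- and at 11.69 and 10.94 in wild-type, with overlap and a difference of 0.19 ± 0.57 (limma adjusted p = 0.872). Prpf38a was at 9.67 and 9.71 in Tip110-/- and 9.94 and 9.70 in wild-type, a difference of -0.13 ± 0.51 with overlap (limma adjusted p = 0.905). The products of Zmat2, Prpf38a and Ik enter together, and the measured differences of their transcripts had different signs.

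The 5 genes of the Prp19 group had differences from -0.78 to 0.54 with a median of -0.71, and none passed. Lower without overlap were 0 of the 5. Prpf19, the ubiquitin ligase that gives the complex its name, was at 7.05 and 6.35 in Tip110-/- and at 7.03 and 7.86 in wild-type. Its pools were alike, while the single outgrowths were -1.51 apart. Cdc5l, its main partner, was at 9.34 and 10.70 in Tip110-/- and at 10.13 and 11.34 in wild-type, so that the Tip110-/- array was the lower one within the pools and within the single outgrowths, with overlap between groups. Xab2, a long repeat protein of the complex, was at 7.51 and 8.35 in Tip110-/- and at 7.80 and 9.63 in wild-type. Its difference of -0.78 ± 0.78 (SE, limma adjusted p = 0.612) rested on wild-type replicate 2 and was 0.13 without it.

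The other genes of the group had differences above 0. Slu7, which is needed for the second catalytic step, was at 7.30 and 7.69 in Tip110-/- and at 6.96 and 6.95 in wild-type. Both Tip110-/- arrays exceeded both wild-type arrays, by 0.54 ± 0.41 (SE, limma adjusted p = 0.519). Crnkl1, another repeat protein, was at 5.61 and 5.89 in Tip110-/- and at 5.73 and 5.55 in wild-type. It had the smallest standard error of the 36, 0.28, and a difference of 0.11.

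In 5 of the 36 genes both Tip110-/- arrays lay below both wild-type arrays, where 12.9% of all genes did: Snrpd3, Sf3a1, Eftud2, Snrnp27 and Zmat2. In 4 they lay above, where 39.9% of all genes did: Snrpf, Snrpc, Ddx23 and Slu7. Among genes of a mean signal of at least 8 the counts were 4 and 2 of 27, against 24.9% and 18.3%. As shares of the 36 genes, the 13.9% lower without overlap was near that of all genes and the 11.1% higher was below it. As shares of the 27, the 14.8% lower and the 7.41% higher were both below those of genes at that level. With 2 arrays against 2, an exact two-sided permutation test of a single gene cannot go below 0.333.

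Pools and single outgrowths gave different signs for 18 of the 36 genes. The difference was above 0 in both for 9 genes and below 0 in both for 9. In the pools 22 of 36 genes were lower in Tip110-/-, and in the single outgrowths 14 were. Of the Tip110-/- arrays, the single outgrowth had the higher signal in 24 of 36 genes, and of the wild-type arrays in 17. The median signal of the 36 genes was 9.58 in the pool and 10.04 in the single outgrowth of Tip110-/-, against 9.70 and 9.75 in wild-type. Pooling moves with replicate number and with the amount of RNA collected. That amount also moves with genotype: per outgrowth it was 55.0 and 144 pg in Tip110-/- and 248.7 and 178 pg in wild-type. The parts of pooling and of the amount of RNA were not tested.

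**Figure D3:**
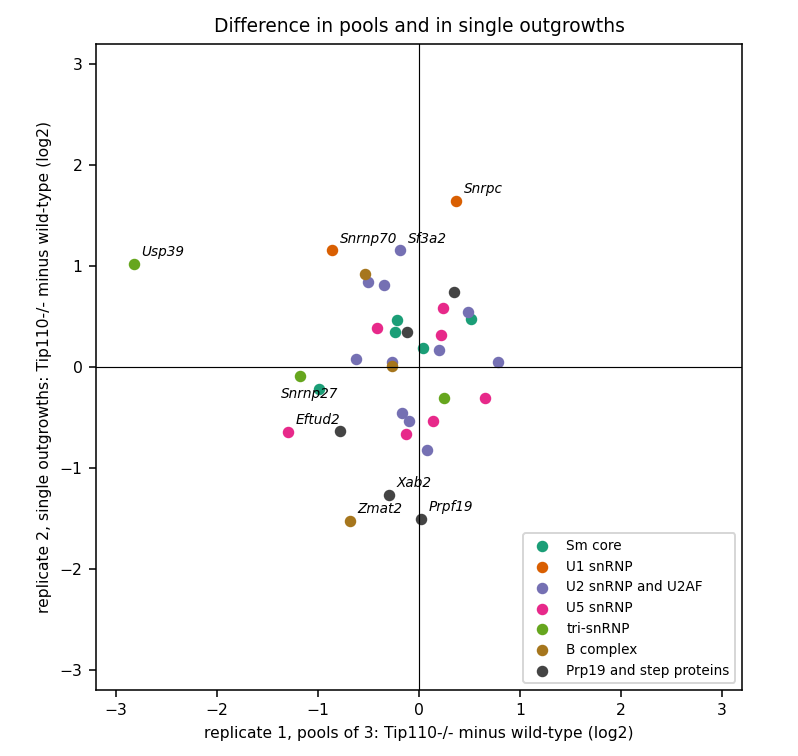
Difference between genotypes (Tip110-/- minus wild-type, log2) in the pools of 3 outgrowths (horizontal) against that in the single outgrowths (vertical), 1 point for each of the 36 genes and 1 array per genotype on each axis. Usp39 lies far to the left at -2.83 in the pools and at 1.02 in the single outgrowths, and Zmat2 is below 0 on both axes.

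The direction of the small differences depended on how arrays were scaled. The median over the positive control rows was 8.69 and 9.51 in Tip110-/- and 9.80 and 9.66 in wild-type, and that over all genes 4.45 and 4.32 against 4.21 and 4.22. Relative to the positive control rows, the median of the 36 genes was 0.89 and 0.53 in Tip110-/- and -0.10 and 0.10 in wild-type. Centred on those rows, 29 of 36 genes were above 0, with a median of 0.65 where all genes had 0.78. Centred on the gene median, 13 of 36 were above 0. Relative to all genes, most of which are dim, the median of the 36 was -0.13 in either case. It was 0.14 with quantile normalization and 0.07 with cyclic loess. Among genes of a mean signal of at least 8, as deposited, the median of the 27 was 0.0059 relative to the 4683.

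Markers of cell types and of proliferation were read on the same arrays. Their lists were chosen with earlier results of these data known, so the counts below describe the lists and are not a test. Among 6 epiblast markers 5 reached an unadjusted p under 0.05 toward lower signal, and all 6 were lower without overlap. Of all genes 3.67% and 12.9% did so, and of genes with a mean signal of at least 8, 6.96% and 24.9%. The list median was 7.81 and 5.60 in Tip110-/- and 10.67 and 10.50 in wild-type. Among 7 proliferation markers 4 reached that p toward lower signal and all 7 were lower without overlap. Their list median was 8.96 and 8.58 in Tip110-/- and 11.11 and 11.48 in wild-type. Of 7 trophoblast markers 0 reached that p in either direction, and their median difference was 0.60. Higher without overlap were 2 of the 7, and 0 were lower. Of all genes 39.9% were higher without overlap, and of genes with a mean signal of at least 8, 18.3%. The trophoblast keratin genes Krt8 and Krt18 were bright on all 4 arrays, from 16.08 to 17.69. Cdx2 and Elf5 of the same list were dim, from 4.66 to 6.39. Of 3 giant cell markers 0 reached that p and 1 was higher without overlap, with a median difference of 0.43. That gene was Ctsq, at 4.83 and 4.32 in Tip110-/- and 4.00 and 4.28 in wild-type, near the background rows. The brightest, Prl2c2, was at 17.17 and 18.33 in Tip110-/- and 17.44 and 16.68 in wild-type, with overlap. The 6 primitive endoderm markers measured had a median of 4.25 and 4.70 in Tip110-/- and 4.67 and 3.91 in wild-type. The brightest of them, Dab2, was at 5.87 and 4.77 in Tip110-/- and 6.02 and 4.74 in wild-type, and Gata6 was at 3.85 and 5.69 in Tip110-/- and 3.96 and 3.60 in wild-type. The fibroblast markers had medians of 3.86 to 4.11, near the background rows. Of 3 blood and uterine markers measured, Ptprc and Pgr were at 3.70 or under on all 4 arrays, while Cd68, a macrophage marker, was at 10.09 and 10.42 in Tip110-/- and 10.39 and 7.69 in wild-type. In bulk RNA fewer cells of a type and less RNA per cell cannot be told apart, and the part of these markers in the values of the spliceosome genes was not tested.

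Other spliceosome genes outside the 41 were read from lists of 77 genes, 68 with a row. These lists too were chosen with earlier results known. Of the 68, 3 were lower and 3 higher at an unadjusted p under 0.05, or 4.41% each. Of all genes 3.67% and 8.99% were, as given above. Sart3, the disrupted gene, was 1 of the 3 lower, and 0 of the 68 passed the adjusted threshold. The median difference over the 68 was -0.01. Leaving out 1 array moved these counts: without Tip110-/- replicate 2 they were 1 and 1, without wild-type replicate 1 they were 3 and 0, and without wild-type replicate 2 they were 2 and 0. By list, 0 of 5 further U1 genes, 0 of 3 further B complex genes and 0 of 7 minor spliceosome genes reached an unadjusted p under 0.05. In the further U2 list it was 1 of 14, in the further Prp19 and catalytic step list 1 of 21, among U4/U6 genes 3 of 4, Sart3 included, and among snRNP assembly genes 1 of 14.

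Gemin2 had the largest difference of all the spliceosome genes read, members of the 41 included. Its protein belongs to the SMN complex and holds the Sm proteins before they are closed into a ring on the RNA, so it acts on the products of the Sm genes described above. It was at 5.52 and 5.24 in Tip110-/- and at 8.23 and 8.37 in wild-type. Both groups were tight and far apart, by -2.92 ± 0.37 (SE), a 7.57-fold lower signal that did not pass over all genes (limma adjusted p = 0.287). Leaving out any 1 array kept it between -3.06 and -2.78, and Smn1, its partner, differed by 0.22. The 5 Sm genes measured had differences of -0.61 to 0.50 in the same arrays.

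Among the U4/U6 genes, whose particle Tip110 helps to re-form, 2 lower and 1 higher of 4 reached an unadjusted p under 0.05. Of all genes 3.67% and 8.99% did. The disrupted gene Sart3 itself was 1 of the 2 lower. The adjusted threshold was passed by 0 of the 4. Prpf31, which binds U4 RNA, was at 6.67 and 6.44 in Tip110-/- and at 8.07 and 8.34 in wild-type, a difference of -1.65 ± 0.42 (SE, limma adjusted p = 0.339). Prpf4 was at 7.43 and 9.24 in Tip110-/- and at 6.29 and 6.33 in wild-type. Its Tip110-/- arrays lay above both wild-type arrays but well apart from each other, and the difference was 2.02 ± 0.70 (limma adjusted p = 0.372), or 1.12 without Tip110-/- replicate 2. Prpf3, whose protein is bound to that of Prpf4, differed by 0.51.

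Among later factors, Prpf18, which acts with Slu7 in the second catalytic step, was at 11.87 and 10.89 in Tip110-/- and at 9.63 and 9.72 in wild-type. The difference was 1.71 ± 0.59 (SE, limma adjusted p = 0.371), in the direction of that of Slu7, and it lay between 1.22 and 2.20 with each array left out. From the further U2 list and not a later factor, Smndc1 encodes a Tudor domain protein related to SMN that is needed for assembly of the spliceosome. It was at 10.53 and 10.21 in Tip110-/- and at 8.61 and 9.13 in wild-type. The groups did not overlap, and the difference was 1.50 ± 0.54 (limma adjusted p = 0.384). Centring on the positive control rows brought Prpf4 and Prpf18 under the adjusted threshold (limma adjusted p = 0.0246 and 0.0388), a setting in which 680 of all genes passed. In that setting the differences of Prpf31 and Sart3 were -1.02 and -0.42, and neither reached an unadjusted p under 0.05.

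**Figure D4:**
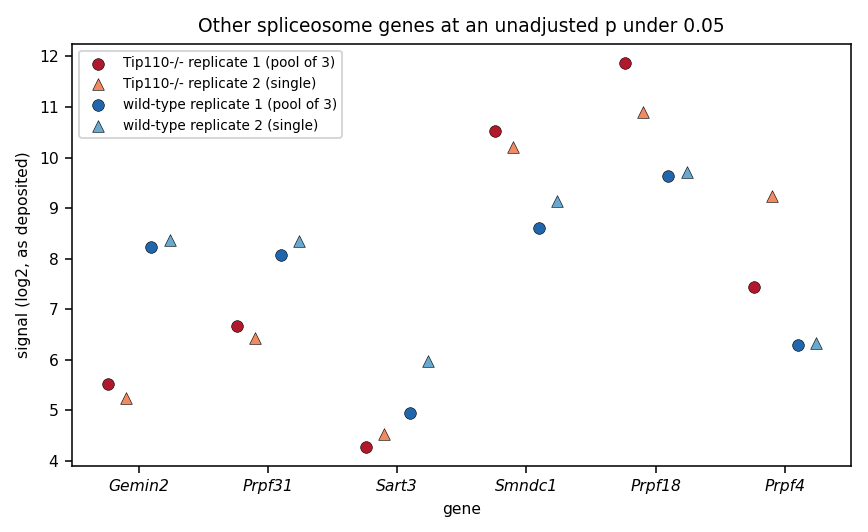
Signal (log2, as deposited) on each array of the 6 other spliceosome genes at an unadjusted p under 0.05, ordered by difference; red and orange are Tip110-/-, dark and light blue wild-type, circles pools of 3 and triangles single outgrowths. Gemin2, Prpf31 and Sart3 have both Tip110-/- symbols below both blue ones, and Smndc1, Prpf18 and Prpf4 have them above.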

How the data were processed

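RNA of 2 Tip110-/- and 2 wild-type outgrowth samples was measured, 1 array each. The deposited values are log2 signals, 72688 rows; the log base was inferred from their range. The programs named in the submitters' processing notes are Expression Console and Transcriptome Analysis Console (Affymetrix), with no version or role. What algorithm, centring or build was applied is not given in the sources used here, and no coordinates are printed. The labels state 144 pg of RNA per array and the design text 100 pg.

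A symbol listed repeatedly on 1 row counted as 1 symbol; 30604 rows had 1 symbol, 2146 several and 33206 none. Symbols were updated by Entrez ID through the GRCm38.p6 gene table for 22818 rows. The brightest row by mean stood for each of 355 genes with several rows. Positive control, negative control and antigenomic rows were taken by their names.

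All 30142 genes were fitted with limma 3.58.1 in R 4.3.3 (lmFit, eBayes with trend; genotype as the only term), two-sided, with Benjamini-Hochberg adjustment over all genes, a threshold of 0.05 and no filter; the code was tested on simulated data. The number of arrays limits the precision, and the labels call the replicates biological. Full values are given for genes at an unadjusted p under 0.05, for the extremes of larger classes and for every gene of small ones. Members and lists were chosen with earlier results of these data known. Alternatives covered scaling, normalization, level filter, variance prior, replicate block, row choice and each array left out. Python 3.11.15, pandas 2.3.3 and matplotlib 3.10.9 were used for tables and plots.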

Additional observations from a re-analysis of the deposited data

How the results depend on the processing

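With 2 arrays per genotype, 1 array can turn the sign of a small difference. In all 12 alternatives 0 of the 36 genes passed the adjusted threshold. Without a trend in the variance prior 2 were lower (Eftud2, Zmat2) and 1 higher (Snrpf) at an unadjusted p under 0.05; centred on the positive control rows 1 was higher (Snrpc). The counts were 0 to 1 lower (Usp39, without Tip110-/- replicate 2) and 0 to 1 higher (Snrpg, without wild-type replicate 1) with each array left out. The median difference was 0.65 centred on the positive control rows and -0.13 to 0.25 with each array left out. Of the other spliceosome genes, 1 lower and 9 higher reached an unadjusted p under 0.05 centred on the positive control rows, 1 higher centred on the gene median, 0 lower with a mean signal of at least 8, which removes the dim genes, and 5 higher with no trend. These counts were 1 to 3 lower and 0 to 4 higher with each array left out.

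With the replicate block 4 lower and 1 higher of the other spliceosome genes, and 0 of the 36, reached an unadjusted p under 0.05. Equal numbers share pooling and the labels state no further link, so the samples were not treated as paired. Between the genotypes, the deviations of replicate 1 had r = -0.0903 across 30142 genes, which are not independent. A batch shared by equal numbers was not tested. Of 257 values of 22 named genes under alternatives, 14 changed sign: centred on the positive control rows Snrpd3 (0.0225), Sf3b3 (0.25), Sart1 (0.59) and Prpf38a (0.50), centred on the gene median Snrnp70 (-0.0191), with quantile normalization and cyclic loess Sart1 (0.15 and 0.0113). With each array left out the ranges of those that turned were -2.80 to 0.99 for Usp39, -0.75 to 1.05 for Snrnp70, -0.11 to 0.93 for Prpf8, -0.29 to 0.22 for Sart1, -0.18 to 0.57 for Ik and -1.69 to 0.13 for Xab2. The cause was not tested.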
